A study of Mus musculus with 8 samples.

Results

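The genes described here are 58 genes that license, fire and copy DNA replication origins, supply the nucleotides for it or time the passage from G1 into S phase. They were chosen by symbol, current or older, in the annotation of a cDNA microarray platform, by a rule that uses no measured value. Of the 58, 43 had a named probe (53 probes, with 9 genes on several) and 42 had a value on at least 3 of the 4 arrays of each group, out of 14013 features tested in all. The arrays compared HM-1, a mouse embryonic stem cell line that lacks the purine salvage enzyme Hprt, with R1, another such line, both hybridised together in different dyes on every array. In 4 arrays both lines had been treated with nocodazole, a drug that depolymerises microtubules and so holds cycling cells in mitosis, and in 4 arrays both were untreated. The labels give neither dose nor duration of the drug, and state no passage, culture medium or feeder cells. Nocodazole replicates 1, 2 and 3 and untreated replicates 1 and 2 had HM-1 in Cy5, while nocodazole replicate 4 and untreated replicates 3 and 4 had it in Cy3. The labels do not state whether replicates are separate cultures. P-values therefore cover the spread from array to array, and that spread may be technical.

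Replication is built in steps. In G1 the origin recognition complex, with Cdc6 and Cdt1, loads the MCM helicase onto DNA, and geminin later blocks Cdt1 so that an origin is licensed only once per cycle. In S phase the Dbf4-dependent kinase and cyclin-dependent kinases recruit Cdc45 and the GINS complex to the helicase, and polymerases, the sliding clamp Pcna and its loader follow. Many of these genes are targets of E2F factors, which retinoblastoma proteins hold back until cyclin-dependent kinases phosphorylate them. Mouse embryonic stem cells are known for a short G1 phase, with most cells in S phase and cyclin E and Cdk2 active through much of the cycle.

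Every value below is a log2 ratio between HM-1 and R1, centred on the median of its array, with the sign of the deposited table. The table does not say which line is the numerator, so no line is called higher. A second reading, in which the 3 arrays with HM-1 in Cy3 are turned to the opposite sign, is given beside the main comparisons. The first code for a missing denominator on each array was positive with HM-1 in Cy5 and negative with HM-1 in Cy3. Those signs would arise if the 3 Cy3 arrays had been turned before deposit, a step the second reading would undo. Whether they had been was not tested. Since nocodazole-treated and untreated cells never share an array, nocodazole minus untreated is a difference of 2 line ratios, from which an effect of the drug within a line cannot be read. A ratio gives no level either, so the stem cell identity of each line could not be checked, although 10 of 22 pluripotency markers were tested. In such bulk RNA, fewer cells in a phase and less RNA per cell cannot be told apart.

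Nocodazole replicate 1 stood apart from the other arrays for some markers of other cell types. Dab2, an adaptor for endocytosis in primitive endoderm, was at 1.27, -0.82, -1.22 and -1.08 with nocodazole, against -0.92, -1.06, -1.21 and -0.94 untreated. Krt8, a keratin of trophectoderm and other epithelia, was at 1.40, -0.92, -1.27 and -1.16 with nocodazole, against -0.67, -0.70, -1.20 and -1.34 untreated. Both were positive on nocodazole replicate 1 and negative on the other 7 arrays, on the deposited signs, as were 2.59% of the 11679 features with all 8 values, while 2.84% were negative on those 7 arrays with any sign on the first. That pattern was held by 4 of 14 endoderm markers with all values, 3 of 12 fibroblast markers and, of 3 trophectoderm markers, by Krt8 but not by Gata3 or Ascl2. A swap of the channels on nocodazole replicate 1 would turn the sign of each of its values; the labels record none, and it was not tested. On the deposited signs, 51.1% of all features had a negative fitted ratio with nocodazole and 50.1% untreated. Of the 15 endoderm markers tested, 12 were negative with nocodazole (median -0.27) and 10 untreated (median -0.33). The mean of the list over single arrays ran from -0.82 to 0.28 with nocodazole and from -0.65 to 0.05 untreated. Of 16 fibroblast markers, 13 were negative with nocodazole (median -0.15) and 10 untreated (median -0.14). Their list means were -0.53 to 0.05 with nocodazole and -0.31 to 0.13 untreated. In the second reading these medians were positive. They were 0.16 with nocodazole and 0.02 untreated for the endoderm markers, and 0.085 and 0.05 for the fibroblast markers. The part of such cells, or of the array itself, in the ratios of the replication genes was not tested, and values without nocodazole replicate 1 are given where they differ. Nocodazole replicate 3 had the widest spread of ratios, with an SD of 1.28 over features against 0.78 to 0.91 on the other 7 arrays.

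Promoters were searched for E2F words because E2F factors are known to control many of these genes. Windows from 250 bases before to 50 bases after the start of transcription (RefSeq, GRCm38.p6) were searched on both strands for the E2F words TTTCCCGC, TTTGGCGC, TTTCGCGC and TTTGCCGC. Of the 47 replication and G1/S genes with a window, 16 held a word (34.0%), against 704 of all 27025 genes (2.6%). The words were in 4 of 5 MCM genes with a window and in both licensing factors with one (Cdc6 and Cdt1), and in none of the 5 nucleotide supply genes. A match is a run of letters and not a measured binding site, and no match says only that these letters are absent from this window. The 5 promoters below are those of Mcm7, which holds a word on either side of its start, of Cdt1, Rrm1 and Rrm2, whose ratios ran in a like order over the arrays, and of Uhrf1, which had positive ratios on all nocodazole arrays. Capitals mark the words, written as the gene's strand reads them.
Mcm7, chr5:138171834-138172133, minus strand: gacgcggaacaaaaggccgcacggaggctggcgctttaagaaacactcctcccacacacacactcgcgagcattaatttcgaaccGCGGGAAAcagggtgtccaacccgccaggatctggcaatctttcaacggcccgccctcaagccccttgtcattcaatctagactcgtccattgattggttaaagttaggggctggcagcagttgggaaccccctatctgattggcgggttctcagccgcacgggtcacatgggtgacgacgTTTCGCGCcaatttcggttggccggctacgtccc
Cdt1, chr8:122567765-122568064, plus strand: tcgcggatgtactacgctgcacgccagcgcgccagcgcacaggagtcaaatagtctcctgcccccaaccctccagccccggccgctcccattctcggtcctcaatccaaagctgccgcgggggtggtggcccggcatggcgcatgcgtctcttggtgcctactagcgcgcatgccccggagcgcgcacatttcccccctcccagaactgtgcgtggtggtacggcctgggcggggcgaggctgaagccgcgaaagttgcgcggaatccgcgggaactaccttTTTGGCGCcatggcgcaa
Uhrf1, chr17:56304063-56304362, plus strand: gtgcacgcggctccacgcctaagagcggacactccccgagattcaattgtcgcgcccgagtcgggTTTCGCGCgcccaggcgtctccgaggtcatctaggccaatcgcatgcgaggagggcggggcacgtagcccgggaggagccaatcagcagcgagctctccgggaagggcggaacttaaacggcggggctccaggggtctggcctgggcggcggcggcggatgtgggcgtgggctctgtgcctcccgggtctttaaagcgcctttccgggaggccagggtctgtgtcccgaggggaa
Rrm1, chr7:102441445-102441744, plus strand: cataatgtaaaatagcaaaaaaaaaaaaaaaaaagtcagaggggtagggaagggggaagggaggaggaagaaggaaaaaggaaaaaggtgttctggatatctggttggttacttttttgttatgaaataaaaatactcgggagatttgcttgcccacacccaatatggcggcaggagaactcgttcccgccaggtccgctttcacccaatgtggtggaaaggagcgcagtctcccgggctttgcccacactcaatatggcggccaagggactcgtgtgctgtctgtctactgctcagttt
Rrm2, chr12:24708004-24708303, plus strand: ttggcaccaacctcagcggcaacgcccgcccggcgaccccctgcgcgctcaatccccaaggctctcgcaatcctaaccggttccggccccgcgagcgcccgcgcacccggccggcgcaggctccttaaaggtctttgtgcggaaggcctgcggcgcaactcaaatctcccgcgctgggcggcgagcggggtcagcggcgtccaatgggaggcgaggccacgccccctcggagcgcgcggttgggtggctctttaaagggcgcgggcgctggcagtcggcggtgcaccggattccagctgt
In Mcm7 the words began 165 bases before the start and at base 17 after it, in Uhrf1 185 bases before the start, and in Cdt1 at base 33 after it. Neither promoter of the ribonucleotide reductase genes held a word.

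**Figure D1:**
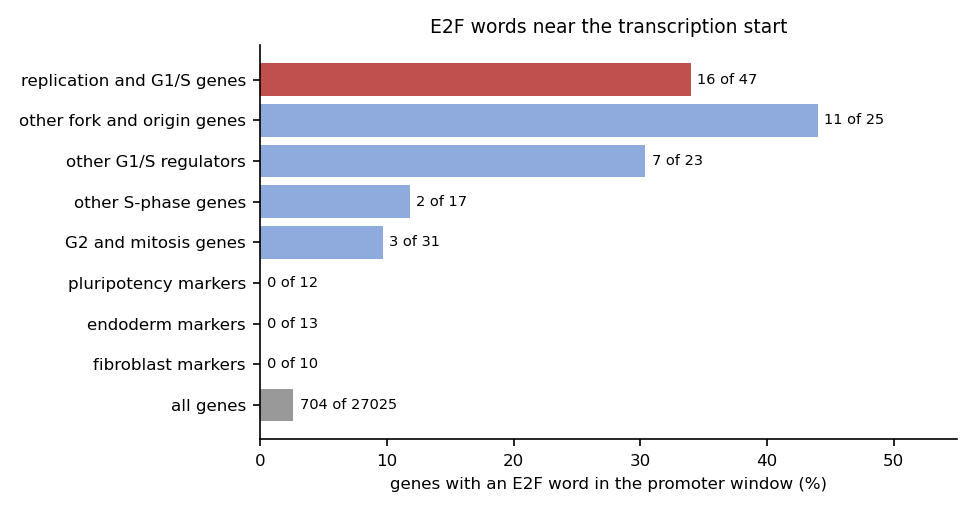
Share of genes (%) with at least 1 E2F word in the promoter window, by gene list, with counts beside the bars. The replication and G1/S genes stand at 34.0%, all genes at 2.6%, and the pluripotency, endoderm and fibroblast markers at 0.

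Among other lists, the words were in 11 of 25 further fork and origin genes, in 7 of 23 further G1/S regulators, in 2 of 17 other S-phase genes (11.8%) and in 3 of 31 genes of G2 and mitosis. None of the 12 pluripotency markers, 13 endoderm markers and 10 fibroblast markers with a window held one. On the deposited signs, the 12 tested genes with a word had a median of -0.004 with nocodazole and -0.08 untreated. The 23 with a window but no word had -0.002 with nocodazole and -0.02 untreated.

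The first question the design poses for these genes is whether the lines differed in their replication machinery. The medians of the set lay within 0.05 of those of all features. With nocodazole the median fitted ratio over the 42 genes was -0.01, with 23 negative (54.8%), against -0.004 over all features (51.1% negative), and untreated it was -0.05, with 25 negative (59.5%), against 0 over all features (50.1% negative). Over both conditions the median was -0.02, with 22 negative (52.4%), against -0.005 (51.2% negative). The change of the ratio, nocodazole minus untreated, had a median of 0.02 over the 42 genes, 18 of them negative (42.9%), and -0.005 over all features (50.9% negative). In the second reading the medians were -0.01 with nocodazole, 0.05 untreated, 0.04 over both conditions and -0.04 for the change. The quartiles of the fitted ratios ran from -0.19 to 0.12 with nocodazole and from -0.20 to 0.09 untreated.

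**Figure D2:**
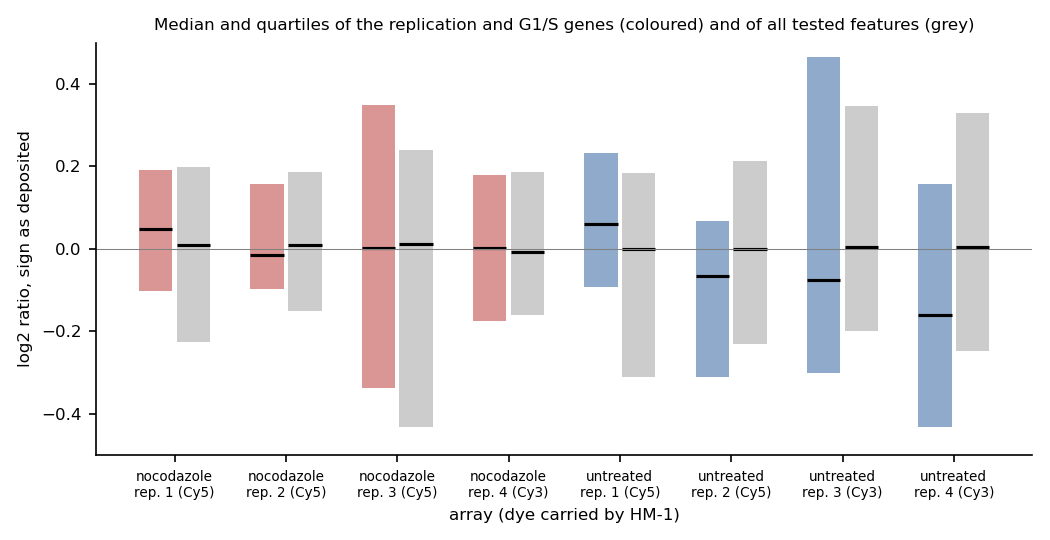
Median (line) and quartile range (bar) of the log2 ratios between HM-1 and R1 on each array, for the tested replication and G1/S genes (coloured) and for all tested features (grey). The medians of the replication genes run between -0.16 (untreated replicate 4) and 0.06 (untreated replicate 1).

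No gene of the set, and no other feature, passed an adjusted p of 0.05 in limma in any of the 4 comparisons (0% of 14013). The smallest adjusted p among the 42 genes was 0.999 with nocodazole, 0.616 untreated, 0.897 over both conditions and 0.997 for the change. At an unadjusted p under 0.05 stood 1 of the 42 genes with nocodazole (Uhrf1), where 2.91% of all features stood there. The same threshold held 4 genes untreated (Gmnn, Rrm1, Ccne1 and E2f1; 6.33% of all features), 6 over both conditions (Gmnn, Rrm1, Rrm2, Ccne1, E2f1 and Uhrf1; 5.57%) and 2 for the change (Gmnn and E2f1; 3.29%). These counts are shares of 2.38%, 9.52%, 14.3% and 4.76% of the 42 genes. None of these 6 genes kept its place in the second reading, which held 0 genes with nocodazole (5.13% of all features), 2 untreated (Prim1 and Rbl1; 10.5%), 3 over both conditions (Prim1, Ccnd3 and Rbl1; 10.4%) and 0 for the change (4.87%). Turning the Cy3 arrays largely exchanges the ratio between the lines and the part of the fit that follows the dye of HM-1. Such losses are therefore built into the second reading and do not test the genes. Its dye component held Rrm1, Ccne1 and E2f1 (3 of the 42 genes; 5.21% of all features). The fitted sign turned between the readings in 17 of the 42 genes with nocodazole, 27 untreated, 23 over both conditions and 12 for the change.

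**Figure D3:**
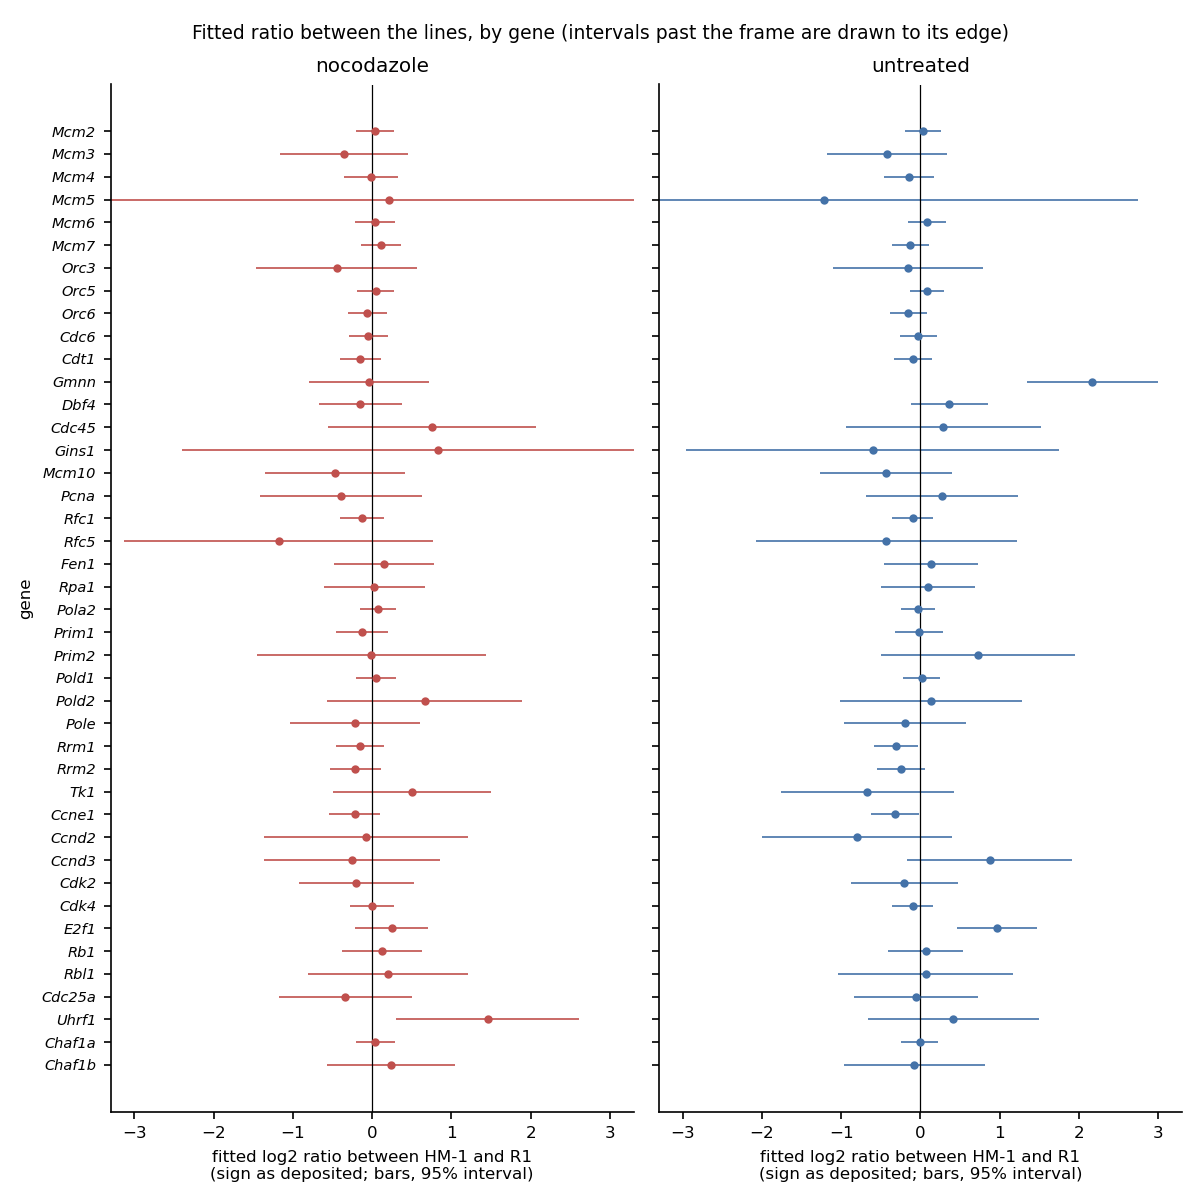
Fitted log2 ratio between HM-1 and R1 for each of the 42 genes, with nocodazole (left) and untreated (right), with 95% intervals from limma. Most intervals span 0. Those of Uhrf1 with nocodazole and of Gmnn, E2f1, Rrm1 and Ccne1 untreated do not, before any adjustment for the number of features.

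What the arrays could show is a limit on the size of a difference. A log2 ratio of 0.5 is a 1.41-fold difference, and the 95% interval lay within -0.5 and 0.5 for 15 of the 42 genes with nocodazole (36.8% of all features), 14 untreated (37.3%), 20 over both conditions (51.6%) and 12 for the change (20.6%). For 10 of the 33 genes with all 8 values the SD over the arrays was under 0.2, against 21.8% of features. These were Mcm2, Mcm6, Orc5, Cdc6, Cdt1, Rfc1, Pola2, Pold1, Cdk4 and Chaf1a. Their intervals over both conditions ran no lower than -0.30 and no higher than 0.23. The narrow width of these intervals follows from the choice by SD on the same arrays and is no separate result. The SD was above 1 for 5 genes, Cdc45, Pold2, Ccnd2, Ccnd3 and Uhrf1, against 11.6% of features. The median SD of the 33 genes, 0.33, was close to the 0.36 of all such features.

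**Figure D4:**
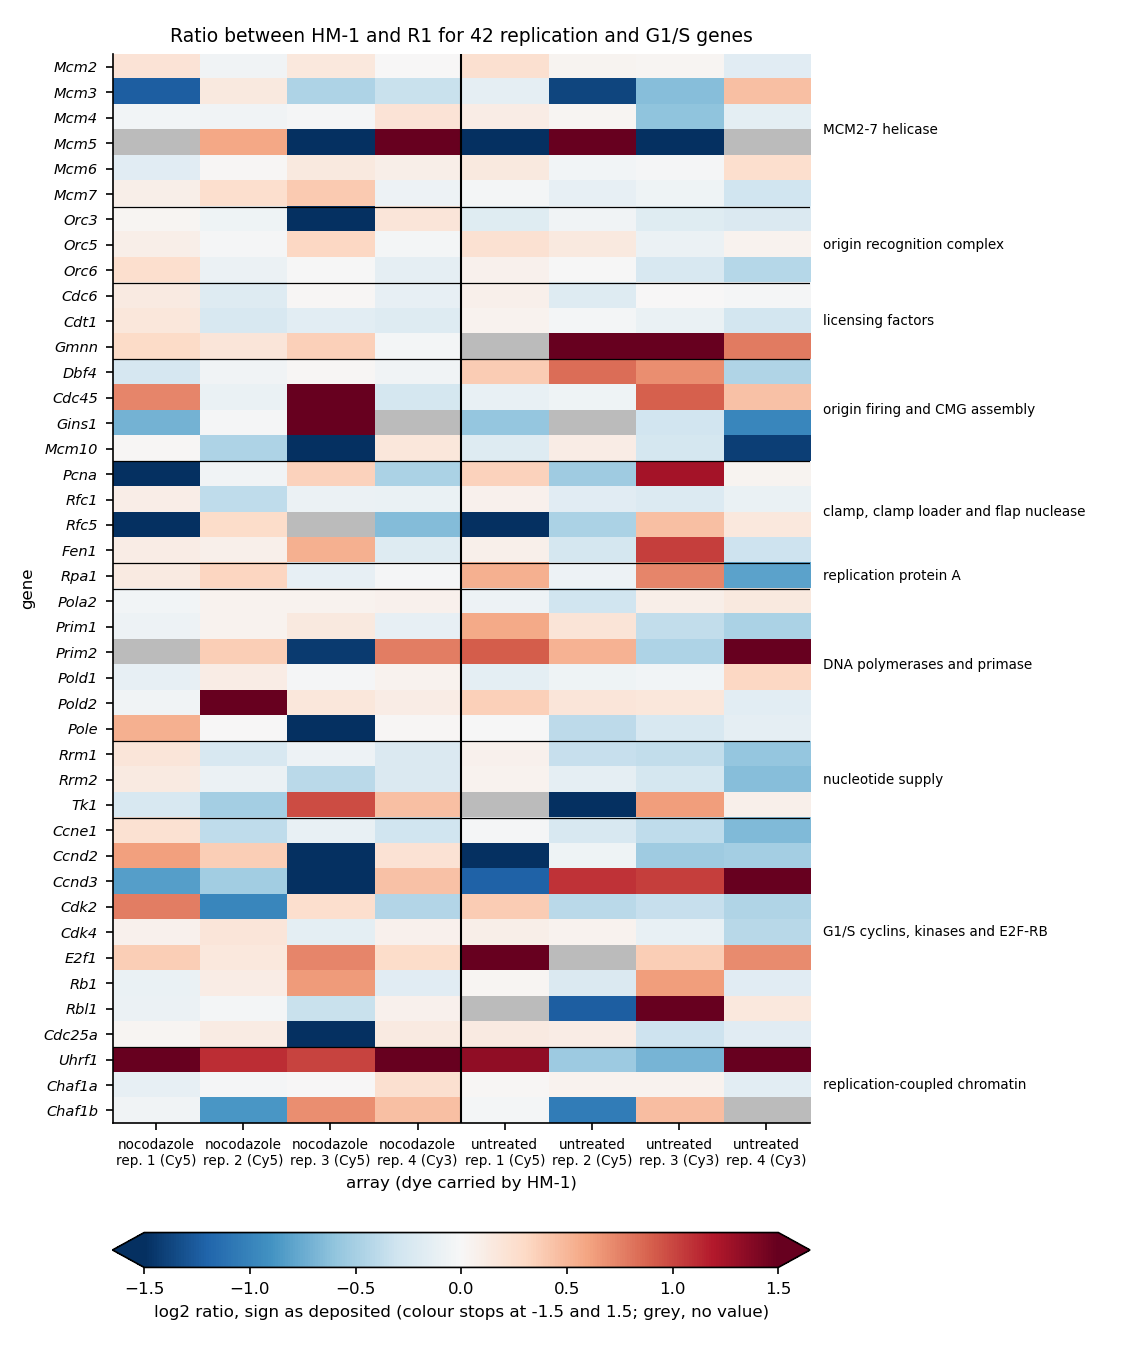
Log2 ratio between HM-1 and R1 on each array (columns, nocodazole left, untreated right, with the dye of HM-1) for the 42 tested genes (rows, by role). Red is positive, blue negative and grey missing, and colours stop at -1.5 and 1.5. Rows such as Mcm2, Cdc6 and Cdk4 are pale on all arrays, while Mcm5 changes sign within both groups, and Ccnd3 is negative on 4 arrays with HM-1 in Cy5 and positive on the other 4.

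The MCM2-7 helicase, the ring of 6 subunits that unwinds DNA at the fork, was measured whole. Values are given in the order of replicates 1 to 4. Mcm2 was at 0.21, -0.05, 0.15 and 0.003 with nocodazole, against 0.24, 0.04, 0.03 and -0.17 untreated. Mcm6 was at -0.17, 0.01, 0.14 and 0.09 with nocodazole, against 0.14, -0.04, -0.02 and 0.25 untreated. Both stayed within 0.25 of 0 on all arrays, and their groups overlapped. Mcm4 was at -0.04, -0.05, -0.02 and 0.20 with nocodazole, against 0.11, 0.04, -0.60 and -0.15 untreated, with untreated replicate 3 the lowest. Mcm7 was at 0.08, 0.25, 0.39 and -0.08 with nocodazole, against -0.03, -0.12, -0.06 and -0.29 untreated. Mcm7 was negative on all untreated arrays and positive on 3 nocodazole arrays, but nocodazole replicate 4 lay among the untreated values. Its change of the ratio was 0.24 ± 0.14 (fit ± SE, limma adjusted p = 0.997), and it was 1 of 5 genes negative on all 4 untreated arrays among 35 with all values there (14.3%, against 7.21% of features). In the second reading 3 genes were negative there, Cdc45, Rfc5 and Pola2 (8.57%, against 9.8%).

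The other MCM subunits were noisier. Mcm3 was at -1.24, 0.14, -0.46 and -0.34 with nocodazole, against -0.13, -1.38, -0.64 and 0.46 untreated, with 3 of its 8 values equal to ratios of small whole numbers, as very dim spots give. Of all values on an array, 11.03% (nocodazole replicate 3) to 19.45% (untreated replicate 4) were such ratios. Mcm5 was at 0.58, -1.56 and 1.70 with nocodazole (no value on replicate 1), against -3.43, 2.73 and -2.86 untreated (no value on replicate 4). Its signs alternated within both groups and 4 of its 6 values were such dim-spot ratios, so its fitted ratio, 0.21 ± 1.495 with nocodazole and -1.21 ± 1.495 untreated (fit ± SE), has little precision. The median fitted ratio of the 6 subunits was 0.04 with nocodazole and -0.14 untreated.

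The origin recognition complex marks the sites where helicases are loaded, and 3 of its 6 subunits had a named probe. Orc5 was at 0.09, -0.01, 0.31 and -0.03 with nocodazole, against 0.23, 0.14, -0.09 and 0.05 untreated. Orc6 was at 0.25, -0.09, -0.001 and -0.13 with nocodazole, against 0.06, -0.005, -0.24 and -0.43 untreated. Orc6 was highest on nocodazole replicate 1 and lowest on untreated replicate 4, while Orc5 was close to 0 throughout. Orc3 was at 0.03, -0.07, -2.30 and 0.18 with nocodazole, against -0.19, -0.05, -0.19 and -0.22 untreated. Apart from nocodazole replicate 3, Orc3 lay between -0.22 and 0.18, and all its untreated values were negative. Orc1, Orc2 and Orc4 are not analysed here.

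Of the licensing factors, the loaders were even and their inhibitor was not. Cdc6, the ATPase that helps load the helicase, was at 0.13, -0.20, 0.01 and -0.12 with nocodazole, against 0.08, -0.19, 0.002 and -0.01 untreated. Cdt1, which brings the helicase to the origin, was at 0.17, -0.24, -0.16 and -0.19 with nocodazole, against 0.05, -0.03, -0.10 and -0.28 untreated. Neither left the range of -0.28 to 0.17, and their groups overlapped. Gmnn, geminin, the inhibitor of Cdt1, was at 0.29, 0.19, 0.36 and -0.03 with nocodazole, against 3.15, 2.10 and 0.78 untreated (no value on replicate 1). The nocodazole arrays all lay below the untreated arrays, with the nocodazole mean at 0.20 ± 0.17 (SD, n = 4) and the untreated mean at 2.01 ± 1.19 (SD, n = 3). Of the 42 genes, 1 (Gmnn) had all nocodazole values below all untreated ones (1.52% of all features), and none had all above (1.21%). In the second reading the Gmnn groups overlapped, while Mcm4 and Prim1 had all nocodazole values below (4.76%, against 1.66%) and Pola2 all above (2.38%, against 2.93%). Its fitted ratio was -0.04 ± 0.30 with nocodazole and 2.17 ± 0.33 untreated, with a term for the dye that sets these apart from the plain means, and its change was -2.21 ± 0.45 (fit ± SE), which is not past the threshold after adjustment (limma adjusted p = 0.997). In the second reading the untreated ratio was 0.47 and the change -0.83. Without untreated replicate 2 the change was -1.47 on the deposited signs, and 2 of the 7 Gmnn values were dim-spot ratios.

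Origin firing genes were measured in 4 of 6 cases, with Cdc7 and Gins2 not analysed here. Dbf4, the activator of the kinase that fires origins, was at -0.25, -0.05, 0.01 and -0.05 with nocodazole, against 0.38, 0.84, 0.69 and -0.46 untreated. With nocodazole Dbf4 stayed near 0, and untreated it was positive on 3 arrays and at its lowest on replicate 4. Cdc45, a helicase partner, was at 0.73, -0.10, 2.84 and -0.27 with nocodazole, against -0.11, -0.07, 0.90 and 0.44 untreated. Mcm10, which helps to start the helicase, was at 0.02, -0.46, -1.49 and 0.17 with nocodazole, against -0.20, 0.11, -0.26 and -1.41 untreated. A single array carried the far value of Cdc45 and of Mcm10 with nocodazole, replicate 3 in both, with opposite signs, and the 3 probes of Mcm10 differed from each other by medians of 0.60 to 2.22. Gins1, a subunit of the GINS complex, had a fitted ratio of 0.83 ± 1.22 with nocodazole and -0.60 ± 0.89 untreated (fit ± SE).

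At the fork, Pcna, the sliding clamp that tethers the polymerases, was at -1.84, -0.06, 0.35 and -0.48 with nocodazole, against 0.35, -0.54, 1.25 and 0.04 untreated. The Pcna groups overlapped, 5 values of its 2 probes were dim-spot ratios, and the probes shared a sign on 2 of 4 arrays. Rfc1, the large subunit of the clamp loader, was at 0.10, -0.38, -0.09 and -0.10 with nocodazole, against 0.07, -0.17, -0.20 and -0.10 untreated. Rfc5, a small subunit, was at -3.84, 0.28 and -0.65 with nocodazole (no value on replicate 3), against -1.86, -0.47, 0.46 and 0.16 untreated. Rfc1 was even, and Rfc5 was most negative on replicate 1 of both groups. Rfc4 had only 2 nocodazole values, -2.63 and -2.48 on replicates 1 and 2, against -0.01, -0.21, 0.19 and -0.25 untreated, and it was not tested. Fen1, the flap nuclease that trims Okazaki fragments, had a fitted ratio of 0.15 ± 0.26 with nocodazole and 0.14 ± 0.25 untreated (fit ± SE). Rfc2 and Rfc3 are not analysed here. Of replication protein A, which coats single-stranded DNA, Rpa1 was at 0.13, 0.33, -0.12 and -0.02 with nocodazole, against 0.54, -0.08, 0.73 and -0.80 untreated, with its highest and lowest values both untreated, and Rpa2 and Rpa3 are not analysed here.

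The polymerases and primase made up 8 genes, 6 of them tested, with Pola1 and Pole2 not analysed here. Prim1, the catalytic primase subunit, was at -0.08, 0.05, 0.15 and -0.12 with nocodazole, against 0.57, 0.19, -0.37 and -0.47 untreated. Prim2, its partner, was at 0.37, -1.43 and 0.77 with nocodazole (no value on replicate 1), against 0.91, 0.52, -0.47 and 1.92 untreated. Prim1 was positive on both untreated arrays with HM-1 in Cy5 and negative on both with HM-1 in Cy3, and Prim2 was highest on untreated replicate 4. Pold2, a subunit of polymerase delta, was at -0.05, 2.96, 0.17 and 0.11 with nocodazole, against 0.36, 0.18, 0.17 and -0.16 untreated. Nocodazole replicate 2 alone stood out for Pold2. Pola2, of the primase-polymerase complex, and Pold1, the catalytic subunit of polymerase delta, ran between -0.30 and 0.31 on all arrays. Pole, of polymerase epsilon, was negative on all untreated arrays and had a fitted ratio of -0.22 ± 0.34 with nocodazole and -0.19 ± 0.32 untreated (fit ± SE).

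Of the genes of nucleotide supply, which make the deoxynucleotides for the fork, 3 of 5 were tested. Rrm1, the large subunit of ribonucleotide reductase, was at 0.18, -0.24, -0.08 and -0.22 with nocodazole, against 0.06, -0.35, -0.37 and -0.58 untreated. Rrm2, the small subunit, was at 0.14, -0.09, -0.40 and -0.21 with nocodazole, against 0.05, -0.13, -0.26 and -0.63 untreated. Both genes were positive on replicate 1 of each group, negative on the other 6 arrays and lowest on untreated replicate 4, and their groups overlapped. Over both conditions Rrm1 had a fitted ratio of -0.23 ± 0.09 and Rrm2 of -0.23 ± 0.09 (fit ± SE), each with a limma adjusted p of 0.897. Without nocodazole replicate 1 these ratios were -0.26 and -0.26, and without untreated replicate 4 they were -0.20 and -0.16. In the second reading they were 0.15 and 0.14, of the opposite sign. Of the 8 Rrm1 values, 2 were dim-spot ratios, and without these its ratio over both conditions was -0.22. The 2 probes of Rrm2 differed by a median of 0.07 over the 8 arrays. Tk1, thymidine kinase of the salvage pathway, was at -0.24, -0.51, 0.98 and 0.45 with nocodazole, against -2.06, 0.63 and 0.08 untreated (no value on replicate 1), with its lowest value on untreated replicate 2. Tyms and Dut are not analysed here.

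Among the G1/S regulators, Ccne1, cyclin E1, which drives Cdk2 at the entry into S phase, was at 0.23, -0.39, -0.11 and -0.30 with nocodazole, against -0.02, -0.24, -0.38 and -0.66 untreated. Ccne1 was positive on nocodazole replicate 1 and negative on the other 7 arrays, and the groups overlapped. It was the 1 gene of 33 with that pattern (3.03%, against 2.59% of features), and in the second reading none of the 33 had it (0.676% of features). Its fitted ratio was -0.22 ± 0.14 with nocodazole, -0.33 ± 0.13 untreated and -0.27 ± 0.09 over both conditions (fit ± SE; limma adjusted p = 0.999, 0.764 and 0.897). Without nocodazole replicate 1 the ratio over both conditions was -0.32, and in the second reading it was 0.17.

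E2f1, a transcription factor that switches on S-phase genes, was at 0.37, 0.16, 0.73 and 0.28 with nocodazole, against 1.55, 0.36 and 0.70 untreated (no value on replicate 2). All 7 values were positive and untreated replicate 1 was the highest, with the nocodazole mean at 0.39 ± 0.24 (SD, n = 4) and the untreated mean at 0.87 ± 0.61 (SD, n = 3). The fitted ratio of E2f1 was 0.96 ± 0.20 untreated and its change -0.72 ± 0.27 (fit ± SE; limma adjusted p = 0.688 and 0.997). Without untreated replicate 1 the untreated ratio was 0.60 and the change -0.25, and in the second reading they were 0.39 and -0.48. Of the 7 values, 2 were dim-spot ratios.

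Cdk2, the partner of cyclin E, was at 0.77, -0.98, 0.25 and -0.43 with nocodazole, against 0.38, -0.41, -0.34 and -0.45 untreated. Its 2 probes both had values only on nocodazole replicates 1 and 2. There 1 probe read 1.22 and -1.97, and the other 0.32 and 0.01. Cdk4, the partner of D-type cyclins, was at 0.07, 0.19, -0.15 and 0.07 with nocodazole, against 0.09, 0.05, -0.11 and -0.42 untreated. The groups overlapped for each kinase, and Cdk4 left the range of -0.15 to 0.19 only on untreated replicate 4. Ccnd3, cyclin D3, was at -0.83, -0.53, -1.80 and 0.44 with nocodazole, against -1.21, 1.08, 1.04 and 2.58 untreated. Ccnd3 was negative on the 4 arrays with HM-1 in Cy5 other than untreated replicate 2 and positive on the 3 with HM-1 in Cy3. Ccnd2, cyclin D2, was negative on all untreated arrays, and its fitted ratio was -0.08 ± 0.54 with nocodazole and -0.80 ± 0.50 untreated (fit ± SE), but its 2 probes differed by a median of 1.28. The retinoblastoma family genes Rb1 and Rbl1 had fitted ratios of 0.12 ± 0.21 and 0.20 ± 0.40 with nocodazole, and of 0.06 ± 0.20 and 0.06 ± 0.44 untreated (fit ± SE). Cdc25a, the phosphatase that activates Cdk2, was at -0.34 ± 0.35 with nocodazole and -0.06 ± 0.33 untreated (fit ± SE). Its 2 probes differed by a median of 0.24, but read -3.54 and 0.08 on nocodazole replicate 3. Ccnd1 and Ccne2 are not analysed here.

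The chromatin genes that act at the fork closed the set. Uhrf1, which reads hemimethylated DNA and recruits the maintenance methyltransferase, was at 2.14, 1.10, 1.01 and 1.501 with nocodazole, against 1.32, -0.55, -0.70 and 1.58 untreated. Uhrf1 was positive on all nocodazole arrays, and untreated it was positive on replicates 1 and 4 and negative on replicates 2 and 3, so the groups overlapped. E2f1 and Uhrf1 were the 2 of 38 genes positive on all 4 nocodazole arrays (5.26%, against 6.11% of features), and in the second reading the genes positive there were Mcm7, Gmnn and Fen1 (3 of 38, 7.89%, against 8.82%). The fitted ratio of Uhrf1 was 1.46 ± 0.48 with nocodazole and 0.41 ± 0.45 untreated, with a change of 1.04 ± 0.66 (fit ± SE; limma adjusted p = 0.999, 0.959 and 0.997). Without nocodazole replicate 1 the nocodazole ratio was 1.24, in the second reading it was 0.26, and 3 of its 8 values were dim-spot ratios. Chaf1a, the large subunit of the histone chaperone CAF-1, was at -0.12, -0.02, 0.001 and 0.23 with nocodazole, against 0.02, 0.06, 0.05 and -0.16 untreated. Chaf1b, its partner, was at -0.06, -0.87, 0.70 and 0.45 with nocodazole, against -0.03, -1.04 and 0.47 untreated (no value on replicate 4). Chaf1a stayed within 0.24 of 0, while Chaf1b was lowest on replicate 2 of both groups.

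**Figure D5:**
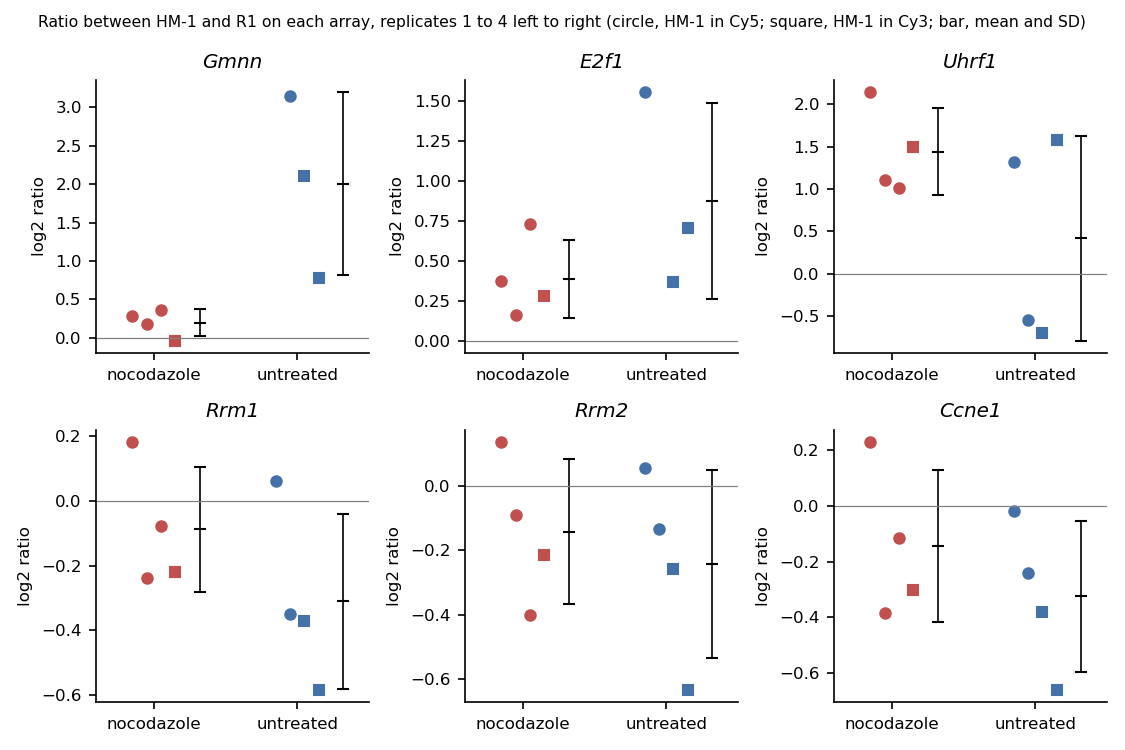
Log2 ratio between HM-1 and R1 on each array for 6 genes at an unadjusted p under 0.05 in at least 1 comparison, nocodazole left and untreated right, replicates 1 to 4 from left to right, with mean and SD. On the deposited signs the Gmnn groups do not overlap (in the second reading they do), those of the other 5 genes do, and Rrm1, Rrm2 and Ccne1 have their highest value on nocodazole replicate 1 and their lowest on untreated replicate 4.

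On the deposited signs, an order of the arrays recurred across genes. The lowest of the 8 arrays was untreated replicate 4 for 14 of the 33 genes with all values (42.4%, against 16.2% of features), and the highest was nocodazole replicate 1 for 11 (33.3%, against 16.1%). Both held for Orc6, Cdt1, Rrm1, Rrm2 and Ccne1 (15.2%, against 4.29%). Among the untreated arrays alone, replicate 1 was highest for 17 of 35 genes (48.6%, against 29.8%) and replicate 4 lowest for 17 (48.6%, against 27.9%). In the second reading untreated replicate 4 was the lowest of the 8 for 5 of the 33 genes (15.2%, against 13.5%) and the highest for 10 (30.3%, against 16.4%), and nocodazole replicate 1 was the highest for 5 (15.2%, against 11.2%). There, both parts of the order held for 1 gene, Uhrf1 (3.03%, against 1.34%). Among the untreated arrays, replicate 1 was then highest for 10 of 35 (28.6%, against 22.9%) and replicate 4 lowest for 6 (17.1%, against 24.1%). The medians of the tested genes on single arrays were 0.05, -0.01, 0.001 and 0.003 on nocodazole replicates 1 to 4, against 0.06, -0.07, -0.08 and -0.16 on untreated replicates 1 to 4. These genes share arrays, and the order was seen in the data before it was counted, so the shares are a description.

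Further genes of the same processes, none of them among the 58, were counted in the same way. Of 14 other fork and origin genes tested, 9 had a negative ratio with nocodazole and 8 untreated, with medians of -0.01 and -0.05. Of these, Pole4, a small polymerase epsilon subunit, was at 0.21, -0.16, -0.35 and -0.22 with nocodazole, against -0.15, -0.67, -0.40 and -0.62 untreated, with untreated replicates 2 to 4 the lowest. Of 17 other G1/S regulators, 8 were negative with nocodazole and 7 untreated, with medians of 0.02 and 0.07, and of 14 other S-phase genes 6 were negative in each condition. Of 30 genes of G2 and mitosis, 19 were negative with nocodazole (median -0.06) and 22 untreated (median -0.13). Mitosis is the phase in which nocodazole holds cycling cells. Over all features 51.1% were negative with nocodazole and 50.1% untreated. In the second reading the medians with nocodazole and untreated were 0.02 and 0.06 for the fork and origin genes. There they were 0.025 and -0.008 for the G1/S regulators, and 0.01 and 0.03 for the genes of G2 and mitosis. Cdc20, the activator of the anaphase-promoting complex, was at 0.19, -0.20, -0.03 and -0.34 with nocodazole, against 0.03, -0.30, -0.32 and -0.50 untreated. Like Rrm1 and Ccne1, Cdc20 was highest on nocodazole replicate 1 and lowest on untreated replicate 4. No gene of these lists passed the adjusted threshold in limma. At an unadjusted p under 0.05 stood 0 of the 30 mitotic genes with nocodazole (2.91% of all features) and 4 untreated (6.33%), all of these negative. In the second reading there were 3 with nocodazole (5.13% of all features) and 2 untreated (10.5%), all negative. Of the 10 pluripotency markers tested, 3 stood there over both conditions, all positive (5.57% of all features). In the second reading 2 did, with 1 of each sign (10.4% of all features).

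The component that followed the dye of HM-1 held 2 of the 42 genes at an unadjusted p under 0.05, Prim1 at 0.26 ± 0.10 and Ccnd3 at -0.86 ± 0.33 (fit ± SE), where 9.16% of all features stood there. Neither passed adjustment in limma (adjusted p = 0.509 and 0.519). Among the 33 genes with all values, the arrays with HM-1 in Cy5 all lay above those with HM-1 in Cy3 for Orc6 and Prim1 (6.06%, against 6.95% of features) and all below for Pola2 (3.03%, against 4.22%).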

How the data were processed

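The deposited values are log2 ratios, 1 per probe and array, from 8 arrays with 2 colours and 20355 probes. The authors' software and any background correction or normalization before deposit: not given in the sources used here. Intensities were not used, and the number of arrays limits the precision. Per the labels, cDNA was made from total RNA and labelled indirectly. The protocols mention organs and a reference pool of control animals, which differ from the channels' names (HM-1 and R1), and the dyes are swapped on 37.5% of the arrays by the labels, while the design text gives 50%. Between 17928 and 19445 probes had a value on an array.

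From these, values with an absolute log2 above 10 (a code for a missing denominator, 74 to 203 per array, none on a probe of the genes described) were set missing, arrays were centred on their median, and probes of 1 symbol were averaged. The platform annotation named 1 gene for 14030 probes, more than 1 for 5 and no gene for 6320, and 13994 gene IDs matched RefSeq (GRCm38.p6). Features with values on at least 3 arrays of each group were fitted in limma 3.58.1 (R 4.3.3) with lmFit and eBayes, a coefficient per group and a term for the dye of HM-1, over all 8 arrays. P-values are two-sided, with Benjamini-Hochberg adjustment over 14013 features and a threshold of 0.05. The fit was tested on simulated data of 11679 features, 200 of them shifted by a known log2 ratio on all arrays. These data were the deviations of features with all 8 values from their group means, each with a random sign. That removes structure that genes share on an array or that follows the dye, which the real data may hold. Only the ratio over both conditions was scored, so the counts do not cover the other comparisons. Over both conditions 0 of the 200 passed the adjusted threshold at a shift of 0.5, 135 at 1 and 179 at 2. The unshifted features that passed numbered 0, 9 and 12. A dim-spot ratio is a value within 0.0015 (log2) of the quotient of a pair of integers no larger than 10. Among genes not named with such values above, Mcm7, Fen1, Pola2, Prim2, Tk1, Ccnd3 and Rb1 held 2 each, and Mcm10 held 3.

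The genes, lists and comparisons were chosen with earlier results of these data known. Array values are given for the MCM genes, Pcna, Ccne1, Cdk2, Cdk4 and up to 3 genes per role with the smallest unadjusted p. Genes outside the set come from fixed lists, at most 3 per list by the same measure. The 21 alternatives covered sign, dye term and label, coded values, centring, spread, weights, filters, dim spots, probe averaging, prior, replicate number as a block, and leaving out each array.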

Additional observations from a re-analysis of the deposited data

Results flagged for a closer look

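In groups of 4 arrays, 8 of the 74 gene and condition pairs with all 4 values held 1 array far from the other three by Dixon's criterion. That is 10.8% of the pairs, against 8.89% of such pairs over all tested features (11.8% with nocodazole, 5.98% untreated), so the share lies near that of the arrays as a whole. Chance alone flags about 1 in 20, or 3.7 of 74. The set's median over the arrays of each group was tested too and not singled out. On nocodazole replicate 3, the array with the widest spread of ratios, Orc3 was at -2.30 (other nocodazole arrays -0.07 to 0.18), Ccnd2 at -2.07 (0.22 to 0.62) and Cdc25a at -1.73 (0.03 to 0.14). On that array the 2 probes of Cdc25a read -3.54 and 0.08, and those of Ccnd2 -3.57 and -0.57. Pold2 was at 2.96 on nocodazole replicate 2 (other nocodazole arrays -0.05 to 0.17). Mcm4 was at 0.20 on nocodazole replicate 4 (-0.05 to -0.02), and Pola2 at -0.046 on nocodazole replicate 1 (0.05 to 0.06). Among untreated arrays, Cdk2 was at 0.38 on replicate 1 (other untreated arrays -0.45 to -0.34) and Chaf1a at -0.16 on replicate 4 (0.02 to 0.06). The last 4 of these genes, Mcm4, Pola2, Cdk2 and Chaf1a, differ from their group by less than 1 on the log2 scale.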

How the results depend on the processing

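No feature passed the adjusted threshold in limma untreated, over both conditions or for the change under any of the 21 alternatives, and 1 did with nocodazole over features with all 8 values and 1 for the dye component with array weights. At an unadjusted p under 0.05, features numbered 302 to 766 with nocodazole (408 as reported; 719 with the Cy3 arrays turned, 616 with the replicate block, 705 without nocodazole replicate 1 and 766 without nocodazole replicate 4), 698 to 1468 untreated (887; 1468 turned), 578 to 1464 over both conditions (781; 1464 turned), 341 to 683 for the change (461) and 730 to 1914 for the dye (1284; 730 turned).

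The replication genes fitted numbered 42 as reported, 33 with all 8 values, 32 without dim-spot ratios and 41 with the block. Without dim-spot ratios, 327 of 11526 features stood at that p with nocodazole, 698 untreated and 623 over both conditions. With the block it was 616 of 12971 with nocodazole, 1024 untreated and 830 over both conditions. When turned, it was 5.13% of all features with nocodazole, 10.5% untreated and 10.4% over both conditions. Counts of replication genes at that p moved as follows. With nocodazole (1 as reported) there were 0 with the Cy3 arrays turned or dim-spot ratios left out and 2 with values on at least 2 arrays per group or with the block, and 0 to 2 on leaving out an array (0 without nocodazole replicate 1, 2 without nocodazole replicate 2 or 3). Untreated (4) there were 2 when turned, uncentred, scaled to one spread or limited to all 8 values, 1 without dim-spot ratios, and 2 to 4 on leaving out an array (2 without nocodazole replicate 4). Over both conditions (6) there were 3 when turned or without the dye term, 2 without dim-spot ratios or with the block, and 3 to 5 on leaving out an array (3 without untreated replicate 4). For the change (2) there were 0 when turned, with all 8 values or without dim-spot ratios, 1 without the dye term, uncentred, scaled, weighted or with the block, and 1 to 4 on leaving out an array (1 without nocodazole replicate 1, 4 without nocodazole replicate 4). For the dye (2) there was 1 without dim-spot ratios, 6 with the block, and 0 to 5 on leaving out an array (5 without nocodazole replicate 4, 0 without untreated replicate 1 or 4, 1 without nocodazole replicate 1 or untreated replicate 2 or 3). Gmnn and E2f1 have no fit with all 8 values or without dim-spot ratios, as they then have too few values. Uhrf1, the 1 gene counted with nocodazole, likewise has no fit without dim-spot ratios. The cause of the other moves was not tested.

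The median over the genes with nocodazole (-0.013) was 0.026 when scaled, -0.064 with all 8 values, -0.059 without dim-spot ratios, 0.014 with the block and -0.13 to 0.006 on leaving out an array (-0.13 without nocodazole replicate 4). Untreated (-0.048) it was 0.048 when turned, and for the dye (0.03) 0.11 uncentred. Deviations from the group mean correlated at 0.13, 0.02, -0.05 and 0.09 for same-numbered arrays over 11679 features. For arrays of different number they correlated at -0.13 to 0.14. The deviations still hold the dye, so they cannot decide whether replicate numbers pair the arrays. With the replicate block the Gmnn change was -1.89.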
